A study of Mus musculus with 24 samples.

Results

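The Fanconi anemia pathway genes described here are Fanca, Fancc, Fancg, Fancl, Fancd2, Brip1 and Palb2, which are 7 of the 18442 protein-coding genes with a probe on the array. They were found by the gene name that the scanner output gives each probe, or by an older name of the gene, and 14 probes matched. Palb2 is listed under its older name BC066140, with 2 probes. Each gene is represented below by its brightest probe over all 24 arrays, and its other probes are described where their readings differ.

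The Fanconi anemia pathway repairs DNA interstrand crosslinks, which block replication forks, and cells that lack it are hypersensitive to crosslinking agents and aldehydes. FANCA, FANCC, FANCG and FANCL belong to its core complex, a nuclear ubiquitin ligase in which FANCL is the catalytic E3 subunit, and FANCD2 is one of the proteins that the complex ubiquitinates. BRIP1 is a DNA helicase that binds BRCA1, and PALB2 joins BRCA1 to BRCA2 in homologous recombination.

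RNA came from Ku70-/- mouse embryonic fibroblasts, a cell line that lacks the Ku70 subunit of the end-joining factor Ku (gene Xrcc6), so that every group, controls included, carries this deletion, and no wild-type cells were measured. In the first set of 15 arrays, the groups were untreated cells (labeled 4 hr), cells exposed to 20 mM KBrO3 for 1 hr and harvested after 3 or 23 hr of repair (KBrO3 alone, 4 and 24 hr), and co-exposed cells, which received 150 μM bisphenol A (BPA) for 1 hr, BPA with KBrO3 for 1 hr and BPA for the remaining 3 or 23 hr (co-exposure, 4 and 24 hr). In the second set of 9 arrays, the groups were untreated cells, with no time given, and cells given 150 μM BPA alone, labeled 4 and 24 hr (5 and 25 hr of exposure in the Methods). Each group held 3 arrays of 3 biological replicates of 1 cell line, and the labels mention no ethanol vehicle in the controls, although BPA was dissolved in ethanol. KBrO3 is an oxidizing agent, and the comparisons asked how the genes respond to it and whether BPA alters that response.

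Levels are log2 signals relative to each array's 75th percentile, and differences are between groups of the same set. A gene was called where the Benjamini-Hochberg adjusted p of limma's two-sided test, taken over every probe tested in the set, was below 0.05, and intervals are 95%. The signal was well above background on 57.7–68.1% of probes per array of the first set and on 76.4–79.4% per array of the second, and on all 24 arrays for the representative probe of every gene except Palb2, which reached it on 22. The median residual SD of a probe was 0.107 among the first 15 arrays and 0.34 among the other 9. The probe for Xrcc6 was well above background on all 24 arrays, with group means between −0.58 and 0.51. Whether that probe lies within the deleted part is not known from the files, so it does not check the genotype. Of 8 fibroblast markers, Col1a1, Col1a2, Col3a1, Vim, Pdgfrb, Fn1 and Sparc were well above background on 24 arrays and Thy1 on 19. Among markers of other cells, Ptprc and Pecam1 were so on 0 arrays, Epcam on 3, Adgre1 on 7, Cdh5 on 8, Cdh1 on 9, and Cd68 and Krt5 on 24.

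Each set occupies 5 slides. Among the first 15 arrays, the untreated cells had a slide in common with the KBrO3 arrays of 4 hr alone, so that slide and group cannot be told apart for the other 3 treatments, and arrays of a slide deviated together (consensus correlation 0.634, against 0.115 in the second set). Each array reads RNA pooled over a culture, and fewer cells with a transcript cannot be told apart from less of it per cell.

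The promoters of 2 pairs of genes are shown because the representative probes of each pair followed similar courses over the 15 arrays of the first set. The pairs are Fancg with Fancc (Pearson's r = 0.989) and Fanca with Brip1 (0.951). Over the second set r was 0.378 and 0.138, and other probes of Fancg and Brip1 moved differently, as described below. They are the 250 bases before the start of a RefSeq transcript of the gene (GRCm38.p6), 5′ to 3′ on the gene's strand, with the motifs found by search in capitals. Fancg lies at chr4:43010302-43010551 (minus strand), Fancc at chr13:63431746-63431995 (minus), Fanca at chr8:123318577-123318826 (minus) and Brip1 at chr11:86201194-86201443 (minus).
Fancg: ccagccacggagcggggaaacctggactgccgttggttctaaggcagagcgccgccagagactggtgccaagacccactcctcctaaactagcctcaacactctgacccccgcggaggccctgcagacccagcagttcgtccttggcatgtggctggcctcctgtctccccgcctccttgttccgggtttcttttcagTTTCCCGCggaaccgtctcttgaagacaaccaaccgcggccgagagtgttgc
Fancc: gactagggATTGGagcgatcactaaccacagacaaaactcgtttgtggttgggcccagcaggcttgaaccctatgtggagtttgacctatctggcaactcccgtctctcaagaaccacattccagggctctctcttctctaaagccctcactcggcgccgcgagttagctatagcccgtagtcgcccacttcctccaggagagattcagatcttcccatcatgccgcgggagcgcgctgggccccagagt
Fanca: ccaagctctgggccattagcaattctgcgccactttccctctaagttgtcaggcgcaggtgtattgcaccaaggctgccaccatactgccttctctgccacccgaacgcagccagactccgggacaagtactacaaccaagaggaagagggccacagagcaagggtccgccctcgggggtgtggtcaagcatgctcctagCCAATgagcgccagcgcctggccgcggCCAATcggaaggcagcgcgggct
Brip1: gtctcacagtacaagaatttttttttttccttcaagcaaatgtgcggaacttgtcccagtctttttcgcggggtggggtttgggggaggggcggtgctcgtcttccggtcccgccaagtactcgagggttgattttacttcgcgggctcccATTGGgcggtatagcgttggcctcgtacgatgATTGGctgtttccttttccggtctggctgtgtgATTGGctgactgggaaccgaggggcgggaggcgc

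Both strands were searched for 4 motifs, the CCAAT box (CCAAT), the E2F motif (TTTGGCGC, TTTCCCGC, TTTCGCGC or TTTGCCGC), the antioxidant response element core (TGACNNNGC) and the cell cycle homology element (TTTGAA). Of 32851 mouse promoters of this length in RefSeq, 33.8% held a CCAAT box, 1.9% the E2F motif, 10.2% the antioxidant motif and 16% TTTGAA. Brip1 held 3 CCAAT boxes and Fanca 2, all nearer to the start than the 1 of Fancc, at 242 bases. The E2F motif was found in Fancg, 52 bases before the start, and the antioxidant motif in Fancl, at 170 bases. TTTGAA was found in none of the 6 promoters with an entry. Palb2 held none of the motifs, and Fancd2 was not analysed here.

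KBrO3 alone lowered 6 of the 7 genes at 4 hr and raised none, against backgrounds of 35.8% of all probes called lower and 36.3% called higher. The median difference over the 7 genes was −0.42, beside 0.06 over all probes. After co-exposure, 5 genes fell and Palb2 rose at 4 hr, where 37.0% of probes were lower and 41.6% higher, with medians of −0.19 and 0.08. Leaving out 1 array gave 3–6 called genes there, and the calls of Fancl, Fancd2 and Palb2 depended on single arrays, as described below. At 24 hr the genes divided by their representative probes: Fanca, Brip1 and Fancd2 were higher than in untreated cells under both treatments, and Fancg and Fancc were lower. The untreated arrays of the first set are all labeled 4 hr. Differences from them at 24 hr, and changes from 4 to 24 hr within a treatment, therefore cannot be told apart from time in culture. For KBrO3 alone at 24 hr, 3 genes rose and 3 fell (background 32.1% higher and 34.0% lower), and for co-exposure 3 rose and 2 fell (32.9% higher and 37.0% lower). Other probes differed. For co-exposure at 24 hr, the other Fancg probes were called higher (0.44 and 0.32), though this depended on the background correction. The second Brip1 probe (−0.14) and a further probe for Fancd2 (0.09) were not called there. After KBrO3 alone at 24 hr, none of these other probes was called. With arrays scaled to their medians, Fancc gave 0.01 for co-exposure at 24 hr. None of the 7 was called after BPA alone, at 4 or at 24 hr. On the slide that holds the 3 KBrO3 arrays of 4 hr and 1 untreated array, the differences were −1.43 for Fancg, −0.80 for Fancc, −0.65 for Palb2, −0.52 for Fancd2, −0.39 for Fanca, −0.30 for Fancl and −0.11 for Brip1.

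**Figure D1:**
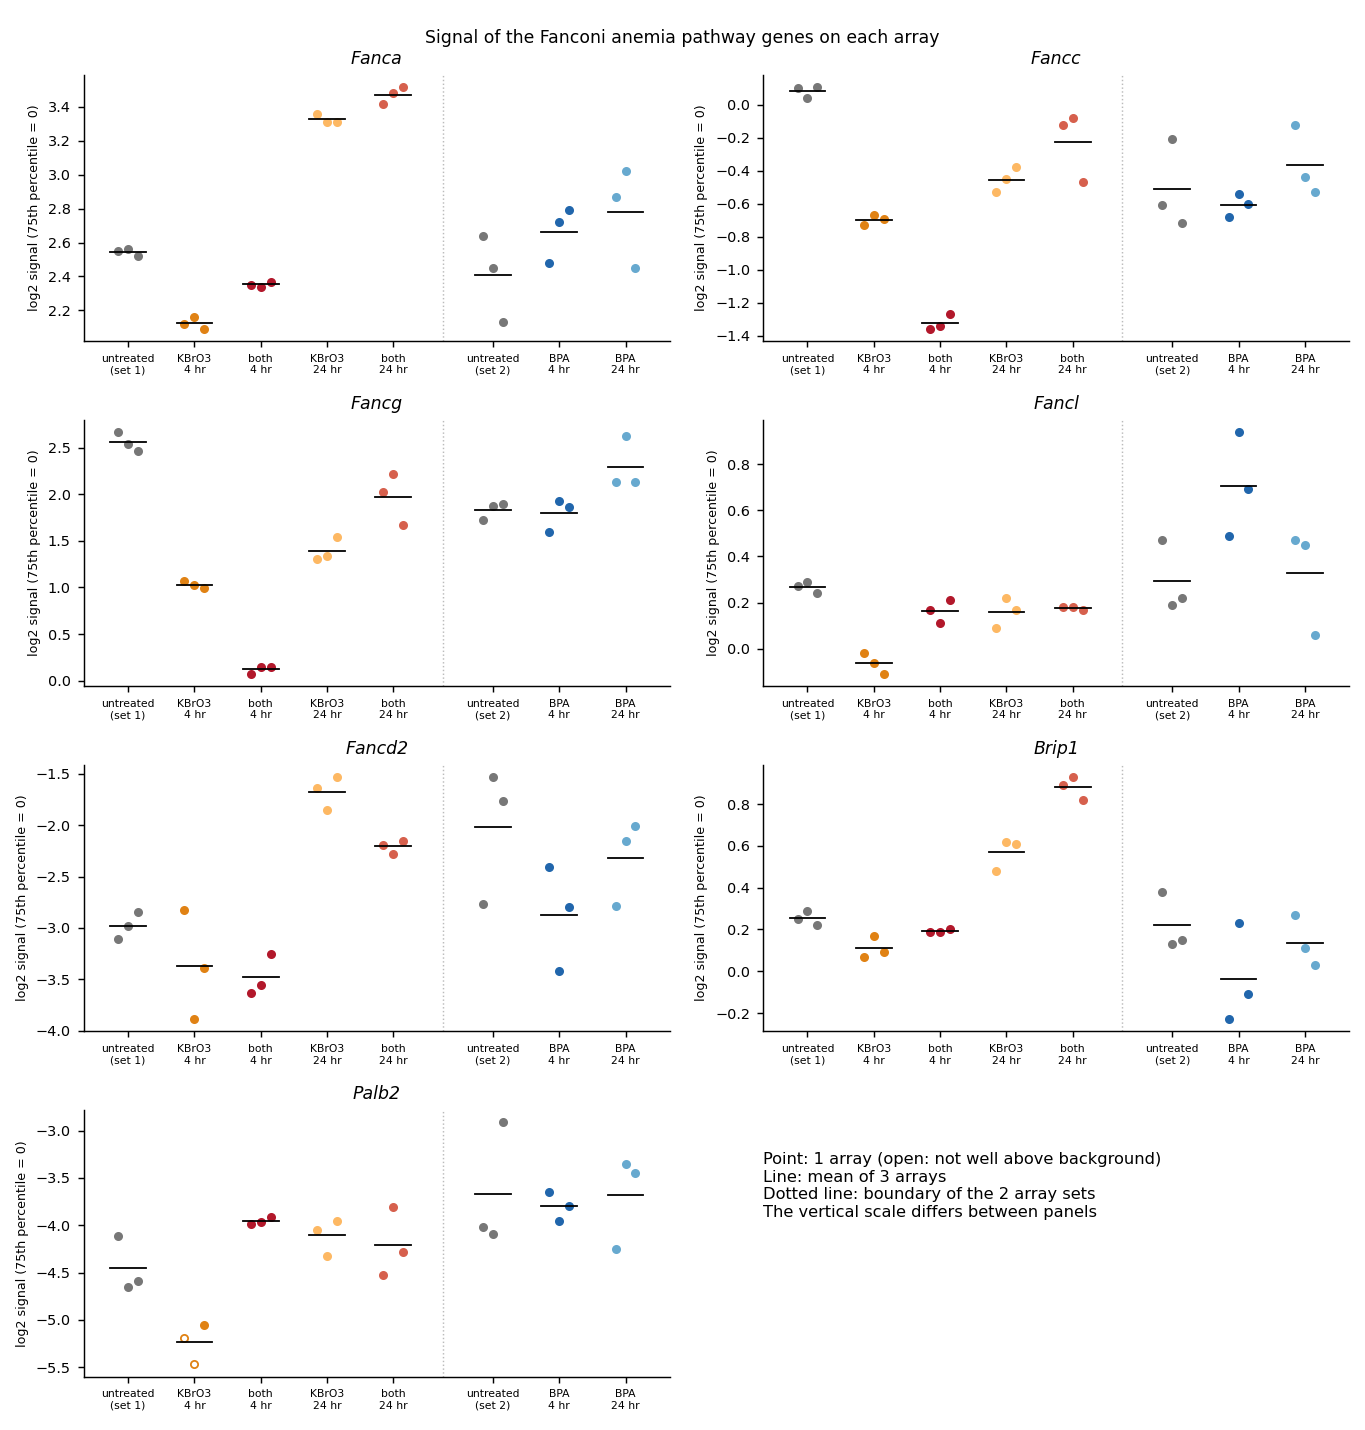
Log2 signal of the representative probe of each gene on each of the 24 arrays, with the mean of 3 arrays as a line and open points where the signal was not well above background. Fancg and Fancc are lowest in co-exposed cells at 4 hr, whereas Fanca and Brip1 are highest in co-exposed cells at 24 hr.

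Among the core complex genes, Fancg showed the widest range. FANCG is a scaffold subunit that holds FANCA in the complex. Its signals were 2.67, 2.54 and 2.46 in untreated cells, 1.07, 1.03 and 0.99 after KBrO3 alone at 4 hr, and 0.07, 0.15 and 0.15 after co-exposure at 4 hr. None of the 3 groups overlap, and co-exposed cells were the lowest. The fall was 2.89-fold for KBrO3 alone (log2 difference −1.53, SE 0.11, adjusted p = 9.53e-08) and 5.40-fold for co-exposure (−2.43, SE 0.11, adjusted p = 1.0e-09). At 24 hr, the signals were 1.30, 1.34 and 1.54 after KBrO3 alone and 2.02, 2.22 and 1.67 after co-exposure. Both groups remained below every untreated array, with log2 differences of −1.17 (SE 0.11, adjusted p = 2.06e-06) and −0.59 (SE 0.11, adjusted p = 0.000584). With median scaling and with normexp the second was −0.27 (adjusted p = 0.121 and 0.167).

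Fancc followed the same course at a smaller size. FANCC is another subunit of the core complex, best known as the gene of complementation group C. The untreated signals were 0.10, 0.04 and 0.11, those of KBrO3 alone at 4 hr −0.73, −0.67 and −0.69, and those of co-exposure at 4 hr −1.36, −1.34 and −1.27. The treated arrays lay below the untreated ones, with a 1.71-fold fall for KBrO3 alone (log2 difference −0.78, SE 0.09, adjusted p = 3.95e-06) and a 2.65-fold fall for co-exposure (−1.40, SE 0.09, adjusted p = 1.23e-08). At 24 hr they were −0.53, −0.45 and −0.38 for KBrO3 alone and −0.12, −0.08 and −0.47 for co-exposure. These were lower than untreated by 0.54 (adjusted p = 0.000146) and 0.30 (adjusted p = 0.00737, SE 0.09 each). With arrays scaled to their medians instead, the latter difference was 0.01 (adjusted p = 0.928), so its direction depends on the scaling, and in a fit of only the arrays compared it was not called (adjusted p = 0.0613).

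Fanca fell at 4 hr and rose at 24 hr. FANCA is the core complex subunit most often mutated in the human disease. Its signals were 2.55, 2.56 and 2.52 in untreated cells, 2.12, 2.16 and 2.09 after KBrO3 alone at 4 hr, and 2.35, 2.34 and 2.37 after co-exposure at 4 hr. The falls were small, by 0.42 (SE 0.04, adjusted p = 4.37e-07) and by 0.19 (SE 0.04, adjusted p = 0.00048), and with normexp, a model-based background correction of the raw signal, they were −0.18 (adjusted p = 0.243) and 0.01 (adjusted p = 0.945). At 24 hr, the signals were 3.36, 3.31 and 3.31 after KBrO3 alone and 3.42, 3.48 and 3.52 after co-exposure, all above every array of the other first-set groups. They exceeded untreated cells 1.73-fold (log2 difference 0.79, SE 0.04, adjusted p = 2.61e-09) and 1.91-fold (0.93, SE 0.04, adjusted p = 3.69e-10).

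Fancl, the ligase subunit, fell after KBrO3 alone at 4 hr. Its signals were 0.27, 0.29 and 0.24 in untreated cells and −0.02, −0.06 and −0.11 after KBrO3 alone at 4 hr, a fall of 1.26-fold (log2 difference −0.33, SE 0.04, adjusted p = 1.82e-05). In the other treated groups of the first set, signals lay between 0.09 and 0.22, below every untreated array, with differences of −0.10 for co-exposure at 4 hr (adjusted p = 0.0437), −0.11 for KBrO3 alone at 24 hr (adjusted p = 0.046) and −0.09 for co-exposure at 24 hr (adjusted p = 0.0738). The first 2 of these calls were lost with the slide as a random block (adjusted p = 0.47 and 0.182), and KBrO3 alone at 24 hr gave 0.04 with median scaling (adjusted p = 0.717) and −0.06 with normexp (0.528). Both were also lost with the replicate block (0.074 and 0.0789) and with no filter on dim probes (0.0853 and 0.0923), whereas co-exposure at 24 hr was called with quantile normalization (−0.12, adjusted p = 0.0277). The first was also lost without untreated replicate 1 or 2, KBrO3 replicate 2 at 4 hr or 3 at 24 hr, or co-exposure replicate 1 or 2 of either time (adjusted p between 0.0512 and 0.166). The second was lost without any 1 array (adjusted p between 0.0518 and 0.171) other than KBrO3 replicate 2 at 24 hr, co-exposure replicate 2 or 3 at 4 hr and co-exposure replicate 3 at 24 hr. A second Fancl probe gave −0.55 for KBrO3 alone at 4 hr (adjusted p = 0.000103) and −0.44 at 24 hr for co-exposure (adjusted p = 0.000806), or −0.12 with median scaling (adjusted p = 0.302). Its differences for co-exposure at 4 hr and KBrO3 alone at 24 hr were −0.12 (adjusted p = 0.217) and −0.20 (adjusted p = 0.0621). Without co-exposure replicate 3 at 24 hr both were called (adjusted p = 0.0134 and 0.00079), the first also with median scaling (−0.27, adjusted p = 0.0251) and the second with normexp (−0.45, adjusted p = 0.0198) and without co-exposure replicate 2 at 24 hr (0.0476).

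Fancd2, the gene of the protein that the complex ubiquitinates, rose at 24 hr. Its untreated signals were −3.11, −2.98 and −2.85. They were −1.64, −1.85 and −1.53 after KBrO3 alone at 24 hr and −2.19, −2.28 and −2.15 after co-exposure at 24 hr, higher than in every untreated array. The rises were 2.47-fold (log2 difference 1.31, SE 0.21, adjusted p = 0.000134) and 1.71-fold (0.77, SE 0.21, adjusted p = 0.00541), and the second call was lost with the slide as a random block (0.76, adjusted p = 0.103). With normexp they were 0.12 (adjusted p = 0.772) and −0.24 (adjusted p = 0.535). At 4 hr, KBrO3 alone gave −2.83, −3.89 and −3.39, overlapping untreated cells (−0.39, SE 0.21, adjusted p = 0.11). Without its replicate 1 the difference was −0.66 (adjusted p = 0.00281), and with normexp it was −0.89 (adjusted p = 0.0474). Co-exposure gave −3.63, −3.56 and −3.25, a fall of 0.50 (SE 0.21, adjusted p = 0.0437), which was lost with the slide as a random block (adjusted p = 0.273) and with no filter on dim probes (0.0646). It was also lost without any 1 untreated array or co-exposed array of 24 hr, without KBrO3 replicate 3 at 4 hr or 1 at 24 hr, and without co-exposure replicate 1 or 2 at 4 hr (adjusted p between 0.0514 and 0.124). The other Fancd2 probe was well above background on 0 of 15 arrays of the first set and was not tested there.

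Brip1 rose at 24 hr under both treatments. Its signals were 0.25, 0.29 and 0.22 in untreated cells, 0.48, 0.62 and 0.61 after KBrO3 alone at 24 hr and 0.89, 0.93 and 0.82 after co-exposure at 24 hr. The 3 groups do not overlap and co-exposed cells were highest, with rises of 1.25-fold (log2 difference 0.32, SE 0.05, adjusted p = 8.32e-05) and 1.54-fold (0.62, SE 0.05, adjusted p = 1.69e-07). At 4 hr, the signals were 0.07, 0.17 and 0.09 after KBrO3 alone and 0.19, 0.19 and 0.20 after co-exposure. KBrO3 alone lowered Brip1 by 0.15 (SE 0.05, adjusted p = 0.0149), a call that was lost without untreated replicate 2 (adjusted p = 0.0568), without KBrO3 replicate 1 (0.0608), with the slide as a fixed block (0.0554), with median scaling (0.206) and with normexp (0.257). Co-exposure gave −0.06 (adjusted p = 0.27).

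Palb2 read close to background. Its signals were −4.11, −4.65 and −4.59 in untreated cells and −5.19, −5.47 and −5.05 after KBrO3 alone at 4 hr, where 2 of 3 arrays were not well above background. After co-exposure at 4 hr they were −3.99, −3.97 and −3.91, above every untreated array. KBrO3 alone gave a fall of 0.79 (SE 0.19, adjusted p = 0.00252) and co-exposure a rise of 0.49 (SE 0.19, adjusted p = 0.0328). The fall was not called with the slide as a fixed block (−0.65, adjusted p = 0.0879), nor the rise with the slide as a random block (0.46, adjusted p = 0.29). The rise was also lost without any 1 of the co-exposed replicates (adjusted p = 0.0582, 0.0626 and 0.0786) or without untreated replicate 2 or 3 (0.115 and 0.101), with the replicate block (0.0508) and with quantile or median scaling (0.167 and 0.113), and with normexp it was −0.80 (adjusted p = 0.118). At 24 hr the differences were 0.34 (adjusted p = 0.136) and 0.24 (adjusted p = 0.281), and these depended on the scaling, at 0.49 and 0.56 with medians (adjusted p = 0.0398 and 0.0194), 0.51 and 0.59 with quantiles (0.0346 and 0.0164), and −1.21 and −1.16 with normexp (0.0228 and 0.027). Without untreated replicate 1, the first was 0.51 (adjusted p = 0.0365). The second probe failed to reach that level on all 3 KBrO3 arrays of 4 hr. Untreated cells exceeded that group at least 1.91-fold and co-exposed cells at least 2.37-fold, with the lowest signal well above background on each array as the bound. Both differences were called by limma (adjusted p = 0.0115 and 0.00422), in tests of the measured signals and not of these bounds. The first bound rests in part on untreated replicate 1, which read −2.96 against −4.76 and −4.69, and without it was 1.27-fold. With the slide as a random block, neither call was kept (adjusted p = 0.131 and 0.216). The first was also lost in a fit of only the arrays compared (0.0904) and with the slide as a fixed block (0.339), and the second with normexp, which gave a log2 difference of 0.51 (0.467).

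**Figure D2:**
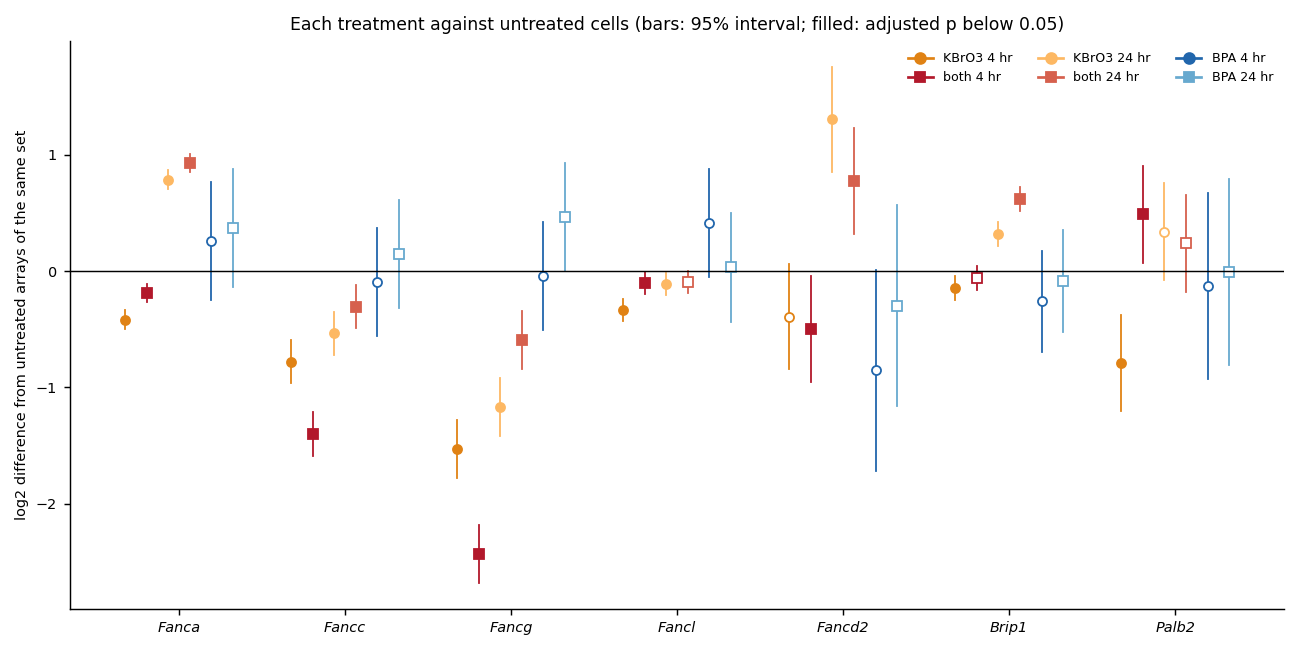
Log2 difference of each treatment from the untreated arrays of its own set, for the representative probe of each gene, with its 95% interval and filled symbols at an adjusted p below 0.05. Fancg fell most, to −2.43 after co-exposure at 4 hr, and within each gene the intervals of BPA alone are the widest.

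Adding BPA to KBrO3 lowered Fancg and Fancc further at 4 hr and raised Fanca, Fancl and Palb2. Thus 2 of the 7 genes were lower than after KBrO3 alone and 3 were higher, where 28.6% of all probes were lower and 29.2% higher. Fancg fell by another 0.90 (SE 0.11, adjusted p = 4.26e-05) and Fancc by 0.63 (SE 0.09, adjusted p = 7.87e-05), with no overlap between co-exposed and KBrO3 arrays. The rises were 0.23 for Fanca (SE 0.04, adjusted p = 0.000243), 0.23 for Fancl (SE 0.04, adjusted p = 0.000852) and 1.28 for Palb2 (SE 0.19, adjusted p = 0.000146), whose KBrO3 group had 1 of 3 arrays well above background. With median scaling, Fanca (0.09, adjusted p = 0.338) and Fancl (0.08, adjusted p = 0.477) were no longer called, and with normexp none of the 3 higher genes was (0.20, 0.19 and 0.45, adjusted p = 0.479, 0.149 and 0.66). No slide holds both KBrO3 and co-exposed arrays of 4 hr, so the slide cannot be told apart from BPA here.

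At 24 hr, 4 genes were higher in co-exposed cells than after KBrO3 alone and none was lower, where 23.1% of probes were higher and 23.7% lower. Fancg was higher by 0.58 (SE 0.11, adjusted p = 0.00134), Brip1 by 0.31 (SE 0.05, adjusted p = 0.000232), Fancc by 0.23 (SE 0.09, adjusted p = 0.0449) and Fanca by 0.14 (SE 0.04, adjusted p = 0.00626). On the slide that holds 2 arrays of each group, these differences were 0.68, 0.29, 0.32 and 0.14. The call of Fancc was lost without any 1 array (adjusted p between 0.0548 and 0.176) other than replicate 3 of either group. With quantile normalization Fanca (0.07, adjusted p = 0.253) and Fancc (0.22, adjusted p = 0.0612) were not called, and with normexp Fanca (0.17, adjusted p = 0.633), Fancc (0.19, adjusted p = 0.344) and Fancg (0.53, adjusted p = 0.0624) were not, which left Brip1. A fit of those 6 arrays alone did not call Fanca (adjusted p = 0.0997) or Fancc (0.205), and Fancc was also lost with the replicate block (0.0713) and with no filter on dim probes (0.0768). For Fancd2 the difference was −0.53 (interval −0.99 to −0.08, adjusted p = 0.0538), with the groups apart. It was called lower in a fit of those 6 arrays alone (adjusted p = 0.011), with the error-weighted fit (0.0225), with only probes above background on every array (0.0382), with the replicate block (0.0469) and without KBrO3 replicate 1 or 2 at 4 hr (0.00961 and 0.0124).

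The difference made by BPA therefore changed between the times for 5 genes, 3 higher and 2 lower at 24 than at 4 hr, where 25.5% of probes were higher and 28.7% lower. The change was 1.48 for Fancg (SE 0.16, adjusted p = 2.17e-05), 0.86 for Fancc (SE 0.12, adjusted p = 0.000139) and 0.22 for Brip1 (SE 0.07, adjusted p = 0.0168), whose other probe gave −0.85 (SE 0.14, adjusted p = 0.000291), so that its direction depends on the probe. The other Fancg probes gave 0.54 (adjusted p = 0.00316, or 0.758 with normexp) and 0.28 (adjusted p = 0.16). The change was −0.21 for Fancl (SE 0.06, adjusted p = 0.0115) and −1.38 for Palb2 (SE 0.27, adjusted p = 0.0012), which again rests on the KBrO3 group of 4 hr with 1 of 3 arrays well above background. With the slide as a random block, Brip1 (0.19, adjusted p = 0.0973) and Palb2 (−1.22, adjusted p = 0.0564) were no longer called. With normexp neither these nor Fancl were (0.27, −0.40 and −0.16, adjusted p = 0.183, 0.886 and 0.496), and Fancl gave 0.10 with median scaling (adjusted p = 0.564). Fancd2, at −0.42 (adjusted p = 0.241), was called without KBrO3 replicate 1 at 4 hr (−0.69, adjusted p = 0.0184), and Fanca, at −0.08, with quantile normalization (−0.20, adjusted p = 0.035).

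From 4 to 24 hr, all 7 genes rose after KBrO3 alone by their representative probes, where 33.0% of probes rose and 42.3% fell. No slide holds KBrO3 arrays of both times, so the slide cannot be told apart from time for these rises. The rises ran from 0.22 for Fancl (adjusted p = 0.000484) to 1.70 for Fancd2 (adjusted p = 1.04e-05), with 1.20 for Fanca, 1.13 for Palb2 (from the same dim group of 4 hr), 0.46 for Brip1, 0.36 for Fancg and 0.24 for Fancc. Those of Fancg and Fancc were lost with the slide as a random block (adjusted p = 0.244 and 0.161). Fancg also lost its call without KBrO3 replicate 3 at 24 hr (0.054), and Fancc without that array (0.0806), replicate 2 at 24 hr (0.0507) or replicate 1 at 4 hr (0.0637). With normexp, those of Palb2 (0.04, adjusted p = 0.951), Fancg (0.0661) and Fancc (0.118) were lost. After co-exposure, 5 genes rose and none fell by these probes, where 32.8% of probes rose and 48.4% fell. Fancg rose by 1.84, Fancd2 by 1.27, Fanca by 1.12, Fancc by 1.10 and Brip1 by 0.68 (Fancd2 by 0.78 with normexp, adjusted p = 0.0881), whereas Fancl differed by 0.01 (interval −0.08 to 0.11), or by 0.47 with median scaling (adjusted p = 0.000548), and Palb2 by −0.25 (interval −0.67 to 0.17), or by −0.45 without co-exposure replicate 2 at 24 hr (adjusted p = 0.0348). These comparisons share arrays with those against untreated cells and are not independent of them.

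No gene was called after BPA alone by limma at either time, where 4.24% of all probes were called at 4 hr and 3.40% at 24 hr, and 0 genes had an unadjusted p below 0.05 or passed the thresholds of the Methods. Between the times, again no gene was called, where 3.79% of probes were, and 1 had an unadjusted p below 0.05. The differences ran from −0.85 for Fancd2 to 0.41 for Fancl at 4 hr, and from −0.30 for Fancd2 to 0.46 for Fancg at 24 hr. Fancd2 had untreated signals of −2.77, −1.53 and −1.76 and BPA signals of −2.41, −3.42 and −2.80 at 4 hr. These overlap (interval −1.72 to 0.01, adjusted p = 0.274). Fancl gave 0.47, 0.19 and 0.22 in untreated cells and 0.49, 0.94 and 0.69 after BPA at 4 hr, so that the BPA arrays were all higher (interval −0.05 to 0.88, adjusted p = 0.327). Fancg gave 1.72, 1.87 and 1.90 in untreated cells and 2.13, 2.63 and 2.13 after BPA at 24 hr. Again the BPA arrays were all higher (interval −0.0004 to 0.93, adjusted p = 0.274). At 4 hr, the differences of Fancg and Fancc were −0.04 (interval −0.50 to 0.42) and −0.09 (interval −0.55 to 0.37). On slides shared with untreated cells, Fancd2 differed by 0.16 and Fancl by 0.12 at 4 hr (2 arrays against 1), and Fancg by 0.25 and 0.73 at 24 hr (1 against 1 on each of 2 slides).

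Where a gene has several probes, they did not always move together. Fancg has 3, whose order from 5′ to 3′ follows from the positions in the files (mm7, minus strand): chr4:43023816-43023875, chr4:43017693-43018378, where the 60 bases span 686 and therefore cross an intron, and chr4:43016178-43016237. They are shown because their readings oppose each other, the third by its first 30 bases and named by its place.
5′-most probe: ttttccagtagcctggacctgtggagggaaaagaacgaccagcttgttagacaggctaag
Middle probe: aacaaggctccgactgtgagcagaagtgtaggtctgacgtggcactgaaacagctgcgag
3′-most probe: ctatgttaatccttctggaggagcagtttt

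The 3′-most probe is the representative one. The middle probe of Fancg also fell at 4 hr, from −2.66, −2.76 and −2.62 to −3.72, −3.76 and −3.72 after KBrO3 alone (log2 difference −1.05, SE 0.09, adjusted p = 2.61e-07) and to −4.15, −3.83 and −3.97 after co-exposure (−1.30, SE 0.09, adjusted p = 3.01e-08). At 24 hr it gave 0.15 for KBrO3 alone (adjusted p = 0.159) and rose by 0.44 in co-exposed cells (adjusted p = 0.000681), where the 3′-most probe fell. The 5′-most probe was called higher there as well (0.32, adjusted p = 0.0263), so that 2 of the 3 probes were higher. That call turned to −1.16 with normexp (adjusted p = 0.0316), and it was lost with the slide as a random block (0.172) and without untreated or co-exposed replicate 1 or 2 (0.0557, 0.0789, 0.111 and 0.0861). The 5′-most probe rose at 4 hr, from −4.39, −4.45 and −4.32 to −3.13, −3.18 and −3.31 after KBrO3 alone (1.18, SE 0.11, adjusted p = 1.13e-06) and to −3.59, −3.29 and −3.23 after co-exposure (1.01, SE 0.11, adjusted p = 4.18e-06). With normexp these were −0.49 and −0.57 (adjusted p = 0.329 and 0.262), so that the direction of this dim probe depends on the background correction, and the middle probe gave −0.44 (adjusted p = 0.189) for co-exposure at 24 hr. From 4 to 24 hr, the 5′-most probe fell by 0.98 after KBrO3 alone (adjusted p = 6.75e-06) and by 0.70 after co-exposure (adjusted p = 0.000122), while the middle probe rose by 1.20 and 1.74 (adjusted p = 8.43e-08 and 2.23e-09). With normexp, both falls were lost (adjusted p = 0.122 and 0.292), as was the first rise (0.52, adjusted p = 0.175), and the second fall was lost with quantile or median scaling (0.177 and 0.135). For BPA added to KBrO3, the middle probe gave −0.25 and 0.29 at 4 and 24 hr (adjusted p = 0.0294 and 0.0157), and the 5′-most probe −0.17 and 0.12 (adjusted p = 0.235 and 0.429), all smaller in size than on the 3′-most probe. Both calls of the middle probe were lost with normexp (adjusted p = 0.932 and 0.821). The first was also lost with the slide as a random block (0.245), without any 1 KBrO3 array of 4 hr (0.0704, 0.0537 and 0.0713) and without co-exposure replicate 1 or 3 of 4 hr (0.129 and 0.0602). The second was lost without co-exposure replicate 1 or 2 of 24 hr (0.0573 and 0.0674). The lower level of Fancg at 4 hr thus holds for 2 of its 3 probes. At 24 hr of KBrO3 alone, the middle and the 5′-most probe gave 0.15 and 0.20 (neither called), 0.30 and 0.35 with median scaling (adjusted p = 0.0377 and 0.0429) and −0.71 and −1.38 with normexp (adjusted p = 0.0468 and 0.0156), so that their direction there depends on the processing.

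Brip1 has 2 probes, at chr11:86131214-86131273 and, toward the 3′ end, at chr11:86128174-86128233 (mm7, minus strand). The first is the representative one. The second, for which KBrO3 alone gave −1.83, −1.76 and −1.81 at 4 hr against −0.65 on each untreated array, fell by 1.15 (SE 0.10, adjusted p = 2.65e-07), and by 0.55 after co-exposure (adjusted p = 0.000189). At 24 hr, its differences were 0.11 (adjusted p = 0.313) and −0.14 (adjusted p = 0.196), neither called. The first was called higher with median scaling (0.26, adjusted p = 0.0427), and the second lower with normexp (−0.29, adjusted p = 0.0489) and without co-exposure replicate 3 at 24 hr (−0.28, adjusted p = 0.00138). The probes also differed for BPA added to KBrO3. At 4 hr the second gave 0.60 (SE 0.10, adjusted p = 0.000251) against 0.09 on the first, and at 24 hr −0.26 (adjusted p = 0.043) against 0.31, a change between the times of −0.85. The value at 24 hr was not called with median scaling (−0.09, adjusted p = 0.518) or without any 1 array (adjusted p between 0.0537 and 0.164) other than co-exposure replicate 1 or 3 at 4 hr and replicate 3 of either group at 24 hr.

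The second Fancl probe gave 0.43 for BPA added at 4 hr (adjusted p = 0.0014). Its value at 24 hr was −0.23 (adjusted p = 0.0469), a call lost without any 1 array (adjusted p between 0.0563 and 0.18) other than replicate 3 of either group at 24 hr. From 4 to 24 hr of co-exposure it fell by 0.31 (SE 0.09, adjusted p = 0.00599), where the first probe differed by 0.01. With median scaling this was 0.15 (adjusted p = 0.182). Its change of the BPA difference was −0.66 (adjusted p = 0.00093, or 0.207 with normexp), with the same sign as on the first probe. The second Fanca probe was well above background on 3 of 3 arrays after KBrO3 alone at 24 hr and on 0 of 3 at 4 hr under either treatment. It passed the filter on dim probes through that group alone, so its fold changes are not given.

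A further probe, named in the files by an Ensembl transcript and described there as Fancd2, did not meet the rule by which the genes were chosen and is given here after its values were seen. It lies 3′ of the Fancd2 probe, at chr6:113757789-113757848 against chr6:113752106-113752165 (mm7, plus strand). Its signals were 0.50, 0.30 and 0.41 in untreated cells, −0.65, −0.68 and −0.66 after KBrO3 alone at 4 hr and −1.0, −0.99 and −1.0 after co-exposure at 4 hr. Both treatments lowered it, by 1.07 (SE 0.09, adjusted p = 2.24e-07) and 1.40 (SE 0.09, adjusted p = 1.47e-08). At 24 hr, where the Fancd2 probe rose, its differences were 0.12 (interval −0.07 to 0.31, adjusted p = 0.254) and 0.09 (interval −0.10 to 0.28, adjusted p = 0.359). The second was called higher with median scaling (0.41, adjusted p = 0.0128) and without co-exposure replicate 3 at 24 hr (0.19, adjusted p = 0.0333).

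**Figure D3:**
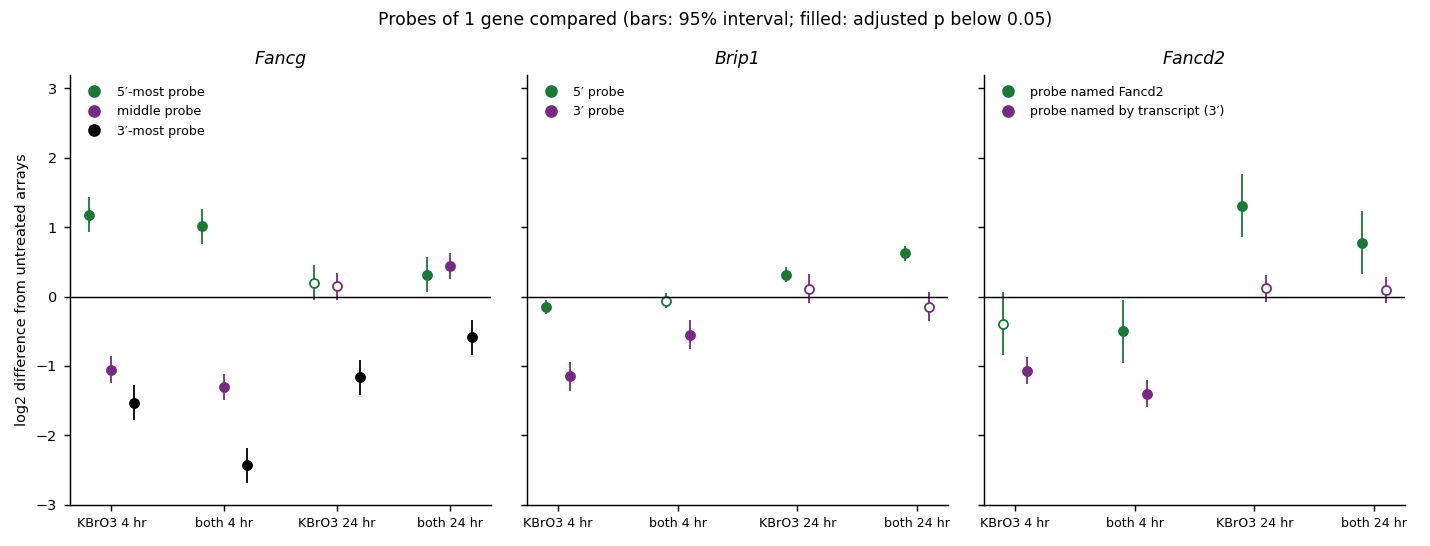
Log2 difference from untreated arrays for each probe of Fancg, Brip1 and Fancd2 in the first set, with 95% intervals and filled points at an adjusted p below 0.05. At 4 hr, the 5′-most Fancg probe is above 1 while the other 2 are below −1.

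RefSeq annotates a protein-coding gene that overlaps Fanca (Zfp276), Fancc (Aopep), Fancd2 (Fancd2os) and Fancl (Vrk2), and none that overlaps Fancg, Brip1 or Palb2.

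Other genes of the pathway were read from a list of 28, of which 27 have a probe and 26 were tested in the first set. After KBrO3 alone at 4 hr, 15 of the 26 were lower and 7 higher (median −0.26), where 35.8% and 36.3% of all probes were, and at 24 hr 5 were lower and 18 higher (median 0.29), where 34.0% and 32.1% were. The medians over all probes were 0.06 and −0.02. Co-exposure gave 13 lower and 11 higher at 4 hr (median −0.09), beside 37.0% and 41.6% of all probes, and 1 lower and 18 higher at 24 hr (median 0.32), beside 37.0% and 32.9%, with medians over all probes of 0.08 and −0.07. None was called after BPA alone by limma, with 1 of 27 at an unadjusted p below 0.05 at 4 hr and 2 at 24 hr.

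In the core complex and its partners, 5 of 9 genes were lower after KBrO3 alone at 4 hr and 1 was higher, against the same 35.8% and 36.3% of all probes. After co-exposure at 4 hr, 4 were lower and 4 higher (median 0.05), where 37.0% and 41.6% of all probes were. At 24 hr, 2 were lower and 6 higher after KBrO3 alone (34.0% and 32.1% of all probes), and 0 lower and 6 higher after co-exposure (37.0% and 32.9%). After KBrO3 alone at 4 hr, Faap20, which binds FANCA, fell by 1.31 (adjusted p = 2.42e-10), and Ube2t, the E2 enzyme that works with FANCL, by 0.85 (adjusted p = 1.7e-08). At 24 hr of KBrO3 alone Faap24, the partner of FANCM, was higher by 1.39 (adjusted p = 4.3e-09) and Fancb, which binds FANCL, by 0.66 (adjusted p = 9.51e-08). Faap20 was among the genes still lower there, with a mean signal of 1.81 against 2.21 in untreated cells. Fanci, the partner of FANCD2, fell by 0.84 after KBrO3 alone (adjusted p = 2.29e-07) and by 1.33 in co-exposed cells (adjusted p = 2.48e-09) at 4 hr, and rose by 0.31 and 0.59 at 24 hr (adjusted p = 0.00155 and 8.08e-06). Usp1 and Wdr48, whose products remove ubiquitin from FANCD2, were higher in all 4 comparisons, by 0.24–0.58 and by 0.41–0.85.

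Of the nucleases that unhook a crosslink, Eme1 fell by 1.62 and 1.54 at 4 hr (adjusted p = 1.9e-08 and 2.63e-08) and rose by 0.45 and 0.44 at 24 hr (adjusted p = 0.00201 and 0.00204). Its partner Mus81 rose by 0.81 and 1.18 at 24 hr (adjusted p = 1.55e-06 and 4.12e-08). Among the recombination genes, Brca1, the partner of BRIP1 and PALB2, rose at 24 hr by 1.18 and 0.99. Brca2 fell by 1.03 and 0.86 at 4 hr. In translesion synthesis, Rev3l, the catalytic subunit of polymerase zeta, was lower in all 4 comparisons, by 0.28–0.71, and Rev1 was higher at 4 hr, by 0.88 and 0.32. Upstream, Atrip, Chek1 and Rpa1 were higher at 4 hr under both treatments, by 0.57–1.28.

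**Figure D4:**
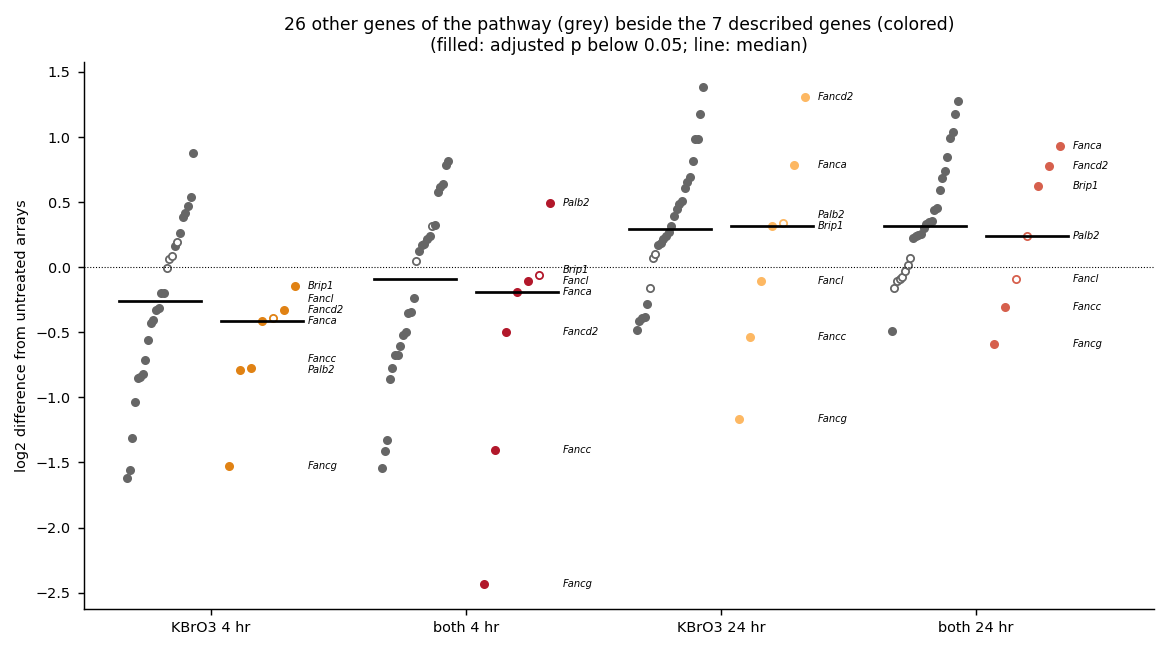
Log2 differences from untreated arrays for the 26 other pathway genes tested (grey) and the 7 genes described here (colored and named) in 4 comparisons, each point a gene, filled at an adjusted p below 0.05, with medians as lines. In both groups of genes, the medians lie below 0 at 4 hr and above 0 at 24 hr.

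Genes of the cell cycle moved on the same arrays, and their counts stand against the shares of all probes just given. Of 15 mitosis genes, 13 were lower after KBrO3 alone and 14 after co-exposure at 4 hr (medians −0.79 and −1.46). At 24 hr, 14 were higher after KBrO3 alone (median 0.62), and after co-exposure 4 were higher and 8 lower (median −0.26). The mean log2 signal of the list was 2.65–2.67 over the untreated arrays, 1.82–1.88 and 1.33–1.37 at 4 hr and 3.29–3.33 and 2.55–2.60 at 24 hr for KBrO3 alone and co-exposure. After BPA alone, 1 mitosis gene was lower at 4 hr and none was called at 24 hr (medians −0.59 and −0.50, with 10 and 8 at an unadjusted p below 0.05). Of 21 S-phase genes, 15 were higher after KBrO3 alone at 4 hr and 14 at 24 hr, and 13 and 16 after co-exposure, with 3, 4, 6 and 2 lower (medians 0.53, 0.23, 0.38 and 0.39). Of 16 p53 targets, 9, 9, 8 and 14 were higher in the same order, with 4, 4, 6 and 2 lower (medians 0.27, 0.32, 0.33 and 1.08). The part of the cell cycle in the changes of the pathway genes was not tested.

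The 8 fibroblast markers moved as well. After KBrO3 alone at 4 hr 2 were lower and 1 higher, and after co-exposure 7 were lower and 1 higher, whereas at 24 hr all 8 were lower under both treatments (medians −0.04, −0.43, −1.22 and −1.66 in this order). Of all probes, 35.8%, 37.0%, 34.0% and 37.0% were lower and 36.3%, 41.6%, 32.1% and 32.9% higher in the same order. The mean log2 signal of the markers was 5.61–5.73 over the untreated arrays, 5.41–5.47 and 5.14–5.20 at 4 hr and 4.25–4.41 and 3.68–3.78 at 24 hr for KBrO3 alone and co-exposure. After BPA alone, none was called at 4 hr and 1 was lower at 24 hr (0 and 3 at an unadjusted p below 0.05), where 4.24% and 3.40% of all probes were called. Of the markers of other cells, only Cd68 and Krt5 could be tested in the first set. Cd68, a lysosomal protein of macrophages, was higher by 2.25 and 1.66 at 4 hr and by 1.16 and 1.87 at 24 hr. Krt5, a keratin of basal epithelium, was higher by 0.50 after KBrO3 alone at 4 hr and fell by 0.88 and by 1.14 at 24 hr (−0.30 after co-exposure at 4 hr, not called). The part of these markers in the changes of the pathway genes was not tested.

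Over the 15 arrays of the first set, the genes nearest to each pathway gene were taken from 14524 others by Pearson's r, as a description in which arrays of a group and of a slide are not independent points. For Fancg they were Slc25a11, Emc9 and Dctn5 (r = 0.995, 0.995 and 0.994, and 0.075, 0.293 and 0.809 over the 9 arrays of the second set). For Fancc they were Nelfb, Dpm3 and Mfsd3 (0.994, 0.992 and 0.992, and 0.512, 0.164 and 0.722). Fanca was nearest to Ppil3, Aftph and Abhd6 (0.994, 0.993 and 0.991, and 0.581, 0.526 and 0.572), and Brip1 to Nabp2, Ide and Kat14 (0.989, 0.989 and 0.988, and 0.324, 0.583 and 0.080). The values were lower for Fancd2, with Pgm2l1, Espl1 and Tardbp (0.959 to 0.951, and −0.402, 0.683 and 0.095 over the second set), for Fancl, with Ints6l, Gskip and Rreb1 (0.949 to 0.942, and −0.195, 0.487 and −0.546), and for Palb2, with Pkd2l2, Plcb2 and Ppfia3 (0.876 to 0.873, and −0.751, 0.301 and −0.108). Among the 7 genes themselves, r was 0.989 between Fancg and Fancc and 0.951 between Fanca and Brip1, and 0.378 and 0.138 over the second set.

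Scaling the arrays to their medians moved the median of all probes by 0.15 for KBrO3 alone at 24 hr, by 0.32 for co-exposure at 24 hr and by −0.14 for co-exposure at 4 hr. Of the probes called, the share that was higher went from 48.6% to 61.0% at 24 hr of KBrO3 alone and, in co-exposed cells, from 47.1% to 68.2%. The 7 genes then divided into 4 higher and 2 lower, and into 4 higher and none lower. For BPA added at 4 and 24 hr, the share went from 50.5% to 33.2% and from 49.4% to 73.8%, with 1 higher and 2 lower genes at 4 hr and 4 higher at 24 hr, and for the change between these from 47.0% to 75.9%, with 3 higher and 1 lower. From 4 to 24 hr it went from 43.8% to 54.1% with quantile normalization for KBrO3 alone, with all 7 genes still higher, and from 40.4% to 62.3% with median scaling for co-exposure, with 6 higher. Normexp moved the median by −0.51 and −0.52 at 4 hr and by −0.49 and −0.45 at 24 hr for KBrO3 alone and co-exposure, with shares of 40.3% (from 50.4%), 38.8% (from 53%), 27.3% and 29.7%.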

How the data were processed

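Cy3-labeled RNA of 24 cultures was measured on 24 Agilent mouse arrays with a single color. The authors deposited fluorescence intensity values per spot from Agilent Feature Extraction (version 9.5.3.1 for the first set and 12.0.0.7 for the second, per the file headers), background-subtracted, detrended and not normalized between arrays. The series' own table holds the same intensity values, at 1080432 of 1080432 spots (relative tolerance 1e-06).

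Signals were converted to log2 and each array's 75th percentile was subtracted (intensity deposited by the authors, log2 computed here). Control and outlier spots were left out and spots of a probe averaged. Tested were probes with at least 1 group in which all arrays of the set were well above background, which left 27310 probes for the first set and 31810 for the second, and 13 and 14 of the 14 probes of the described genes. Each set was fitted separately with limma 3.58.1 (lmFit, eBayes) in R 4.3.3, with 1 mean per group, for 12 comparisons in all. The steps were tested on simulated data. Probes were named through RefSeq accessions, symbols or synonyms (32734 of 41174 matched). Python 3.11.15, numpy 2.4.6, pandas 2.3.3, matplotlib 3.10.9 and data.table (version 1.17.8) were used.

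The described genes and all lists were chosen with earlier results of these data known. The 7 genes and all their probes are reported, and other pathway genes by counts, with some of those called named and 1 not reported here by name. Alternatives were quantile and median scaling, normexp (offset 50, on mean signals for the first set and median signals for the second, whose files hold no mean), the series table, other filters on dim probes, outlier spots kept, only the arrays compared, an error-weighted fit, the thresholds of the Methods (Bonferroni p below 0.01 and a fold change above 1.5), the mean of a gene's probes, replicate and slide blocks, and leaving out each array. Replicate numbers do not pair the samples. Array numbers limit the precision.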

Additional observations from a re-analysis of the deposited data

Results flagged for a closer look

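The following genes changed by different amounts at 4 and at 24 hr, by a direct test of that difference on the log2 scale. After KBrO3 alone, the difference from untreated cells was higher at 24 than at 4 hr by 1.20 for Fanca, 0.24 for Fancc, 0.36 for Fancg, 0.22 for Fancl, 1.70 for Fancd2, 0.46 for Brip1 and 1.13 for Palb2. After co-exposure, it was higher by 1.12 for Fanca, 1.10 for Fancc, 1.84 for Fancg, 1.27 for Fancd2 and 0.68 for Brip1. The difference that BPA made to the response to KBrO3 changed by 0.86 for Fancc, 1.48 for Fancg, −0.21 for Fancl, 0.22 for Brip1 and −1.38 for Palb2. Both Palb2 values rest on the KBrO3 group of 4 hr, in which 1 of 3 arrays was well above background. The same untreated arrays, labeled 4 hr, served both times, so treatment cannot be told apart from time in culture in the changes within a treatment. Groups of 3 arrays were not tested for outlying arrays.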

How the results depend on the processing

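Of 324 counts of called genes under the alternatives, 303 stayed within 1.5 times. With the thresholds of the Methods, the counts were 1 for KBrO3 alone at 4 hr, at 24 hr and between the times, 2 for co-exposure at 4 and at 24 hr, and 0 for BPA added at either time and for its change, where these thresholds called 28.8%, 16.8%, 26.7%, 32.6%, 20.8%, 4.99%, 5.80% and 3.84% of all probes in the same order. Normexp gave 3 for co-exposure at 4 hr, 2 and 1 for BPA added at 4 and 24 hr, 2 for its change and 4 for KBrO3 alone between the times, where it called 52.5%, 12.2%, 11.1%, 9.27% and 39.7% of all probes. BPA added gave 3 at 4 hr with median scaling, and 2 at 24 hr with quantile normalization or with the mean of a gene's probes. The slide as a random block gave 3 for co-exposure at 4 hr and 3 for the change of the BPA difference, and as a fixed block it could be fitted for KBrO3 alone at 4 hr (4 called), BPA added at 24 hr (4), co-exposure between the times (5) and the second set (0). Leaving out 1 array gave 5–6 for KBrO3 alone at 4 and at 24 hr, 3–6 and 5 for co-exposure at 4 and 24 hr, 5 and 3–4 for BPA added, 5–7 and 5–6 between the times, 5–6 for the change, and 0 for BPA alone. The 3 for co-exposure at 4 hr came without untreated replicate 2 or co-exposure replicate 1 or 2. For settings other than the thresholds of the Methods and normexp, the share of all probes called is not given here. A lower count there cannot be told apart from fewer calls over all probes.

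Directions turned in 13 of 2259 values of single genes where either value was called. With normexp they were Fanca (0.01) and Palb2 (−0.80) after co-exposure at 4 hr, Palb2 after KBrO3 alone (−1.21) and co-exposure (−1.16) at 24 hr and Fancd2 (−0.24) after co-exposure at 24 hr. With median scaling they were Fancc after co-exposure at 24 hr (0.01), Fancl after KBrO3 alone at 24 hr (0.04) and Fancl in the change of the BPA difference (0.10). With the mean of a gene's probes they were Fancg after co-exposure at 24 hr (0.06), Fanca for BPA added at 4 hr (−0.05) and 24 hr (−0.32), Fancl between the times of co-exposure (−0.15) and Brip1 in the change (−0.32). The mean for Fanca includes its second probe. That probe was well above background on 0 of 3 arrays in both treated groups of 4 hr and on 1 of 3 after co-exposure at 24 hr. The 2 Fanca values therefore show no change of direction of the gene. Another 47 changed sign with neither value called. The causes were not tested. Same-numbered arrays showed mean residual correlations of −0.029 (first set) and 0.0020 (second), and a fit with the replicate block called 6 and 5 genes for KBrO3 alone and 4 and 5 for co-exposure at the 2 times, which moved no count by over 1.5 times. Signals near background limit Palb2 and the second Fanca and Fancd2 probes.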
